A study of Mus musculus with 12 samples.

Results

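The interferon regulatory factors measured here were 8 genes, *Irf1*, *Irf2*, *Irf3*, *Irf4*, *Irf5*, *Irf7*, *Irf8* and *Irf9*, out of 55335 genes counted. They were taken by symbol from the table of counts, where each symbol was listed 1 time. RNA had been sequenced from 12 mouse samples in 4 groups of 3. Bone-marrow-derived macrophages (BMDMs) came from *Tshr* f/f mice, in which the gene of the thyrotropin (TSH) receptor is flanked by loxP sites, and from *Tshr* MKO littermates, which also carry Lyz2-Cre. The mice were C57BL/6N, and the labels give the marrow donors as males of 6 weeks, for which the study's methods state a wider range of age. Marrow cells of both genotypes had been grown for 7 days with M-CSF at 10 ng/mL and then given TSH at 1 ng/mL for 24 h, so that no library was without TSH. Livers came from males of the same genotypes that had been put on a high-fat diet at 6 weeks of age for 9 weeks, fasted for 8 h and killed 5 min after insulin at 1.5 U/kg. Each comparison between BMDMs and livers is therefore also one between TSH in culture and diet and insulin in the animal. Lyz2-Cre acts in cells that use the *Lyz2* promoter, which include macrophages and neutrophils, and most RNA of a liver comes from hepatocytes, in which that promoter is not known to be active.

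Interferon regulatory factors (IRFs) are transcription factors that share a DNA-binding domain and bind to sites rich in GAAA. IRF3 and IRF7 are latent proteins that are phosphorylated downstream of sensors of viral nucleic acids and then switch on type I interferon genes, and IRF5 acts downstream of Toll-like receptors on inflammatory cytokine genes. IRF9 joins STAT proteins in the complex ISGF3, which carries the signal of type I interferon to its target genes, *Irf7* among them. *Irf1* is itself induced by interferon-gamma and by NF-κB, and IRF2 competes with IRF1 for the same sites. IRF8 and IRF4 are factors of myeloid and lymphoid cells, where IRF8 maintains macrophage identity and IRF4 is known for its role in alternatively activated macrophages and in B and T cells.

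Total counts were 28962878 to 40954211 per library, and 3 counts in a library, the limit that a count of 0 allows, came to 0.0687–0.115 CPM in BMDMs and 0.0714–0.106 in livers, which covers counting error only. CPM, the reads of a gene scaled to a common library size of 1e6 reads, are given here after TMM scaling within a tissue. The TMM factor of BMDM f/f replicate 3 was 0.738, against up to 1.11 in the other BMDM libraries. *Tshr* had 0, 0 and 2 counts in f/f BMDMs, 0, 0 and 5 in MKO BMDMs and 0 in the 6 livers, so the deletion could not be checked in these counts. *Lyz2* was at 8871, 9843 and 8773 CPM in f/f BMDMs and at 16150, 14540 and 22320 CPM in MKO BMDMs, and in livers at 27.7, 59.9 and 44.7 CPM in f/f and 1.56, 106.5 and 43.8 CPM in MKO. The 5 hepatocyte markers summed to 67130–91850 CPM in livers and to at most 0.0783 CPM in BMDMs. Of 5 Kupffer cell markers only *Clec4f* was at 0 in all BMDMs. The 5 summed to 283, 228.5 and 505.2 CPM in f/f and 372.8, 259.6 and 64.85 CPM in MKO BMDMs. That range overlapped the one in livers, so this sum did not set the tissues apart. Replicates of a group had correlations across genes of 0.947 and above in log2 CPM. In one place the study gives counts of these livers under genotype headings opposite to the labels, so every direction in liver rests on the labels, and f/f and MKO livers are livers labelled so.

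On GRCm38 the genes lie at chr11:53770014-53778374 (*Irf1*), chr8:46739732-46847458 (*Irf2*), chr7:44997648-45002848 (*Irf3*), chr13:30749226-30766976 (*Irf4*), chr6:29526625-29541871 (*Irf5*), chr7:141262706-141266481 (*Irf7*, minus strand), chr8:120736358-120756694 (*Irf8*) and chr14:55603571-55610030 (*Irf9*), on the plus strand but for *Irf7*. Exons of *Irf1*, *Irf3* and *Irf7* share 135, 88 and 45 bases with genes on the opposite strand and those of *Irf9* 123 bases with a gene on its own strand, at most 3.4% of their length.

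The bases upstream of the start sites are shown for *Irf1*, *Irf2* and *Irf8*, where a motif was found, and for *Irf4* and *Irf7*, whose values stood out among those given next and which held none. They are RefSeq sequence of GRCm38.p6, written 5′ to 3′ and cut where the annotated gene begins. Capitals mark STAT dimer sites (GAS, TTCNNNGAA), IRF elements (GAAA, any 2 bases, GAAA) and the kappa B consensus, each searched on both strands.
Irf1 (chr11:53769764-53770013, plus strand): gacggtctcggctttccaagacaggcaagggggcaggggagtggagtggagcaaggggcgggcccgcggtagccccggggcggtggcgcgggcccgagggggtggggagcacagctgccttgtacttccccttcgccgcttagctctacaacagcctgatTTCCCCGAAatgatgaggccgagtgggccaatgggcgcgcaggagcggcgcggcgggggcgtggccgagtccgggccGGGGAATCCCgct
Irf2 (chr8:46739495-46739731, plus strand): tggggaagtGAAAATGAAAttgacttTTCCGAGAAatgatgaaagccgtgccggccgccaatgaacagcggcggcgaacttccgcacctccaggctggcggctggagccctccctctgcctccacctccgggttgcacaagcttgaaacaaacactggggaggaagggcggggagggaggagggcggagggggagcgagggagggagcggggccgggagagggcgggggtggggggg
Irf8 (chr8:120736108-120736357, plus strand): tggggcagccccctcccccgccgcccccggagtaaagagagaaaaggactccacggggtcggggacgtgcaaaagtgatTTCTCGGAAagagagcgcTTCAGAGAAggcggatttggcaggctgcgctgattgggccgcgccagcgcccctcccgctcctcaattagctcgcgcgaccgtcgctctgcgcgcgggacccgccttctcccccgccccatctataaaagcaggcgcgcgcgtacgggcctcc
Irf4 (chr13:30748983-30749225, plus strand): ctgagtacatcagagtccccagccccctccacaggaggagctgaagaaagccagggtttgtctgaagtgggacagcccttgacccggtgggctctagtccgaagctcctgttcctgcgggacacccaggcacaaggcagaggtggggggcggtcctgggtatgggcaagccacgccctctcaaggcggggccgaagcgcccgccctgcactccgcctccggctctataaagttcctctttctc
Irf7 (chr7:141266482-141266674, minus strand): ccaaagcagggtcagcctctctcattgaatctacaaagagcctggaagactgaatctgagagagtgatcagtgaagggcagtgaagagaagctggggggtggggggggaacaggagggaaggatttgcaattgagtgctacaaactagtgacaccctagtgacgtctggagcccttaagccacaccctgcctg
A GAS match lay at −90 in *Irf1*, at −224 in *Irf2* and at −171 and −153 in *Irf8*, counted from the RefSeq start site. *Irf2* held the only IRF element, at −241, before its GAS match. A kappa B match lay at −13 in *Irf1* and another at −17 in *Irf2*, the latter running over the end of the bases shown and therefore not in capitals. Of 32851 windows of 300 bases around mouse start sites, 8.3% held a GAS match, 3.44% an IRF element and 4.51% a kappa B match. No match was found in the windows of *Irf3*, *Irf4*, *Irf5*, *Irf7* and *Irf9*, which says only that these letters are not in those windows. The windows of *Irf9* lie inside the annotated gene, with RefSeq start sites 414 and 1008 bases past its beginning. No base upstream of the annotated *Irf9* gene was therefore searched.

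Levels per length were compared first, as CPM scaled over the 12 libraries and divided by the kilobases of the principal transcript. In f/f BMDMs the order was *Irf7* (354 ± 275.03 CPM per kilobase, SD, n = 3), *Irf1* (302 ± 147), *Irf5* (60 ± 15.2), *Irf8* (59.5 ± 15.7), *Irf2* (40 ± 9.45), *Irf9* (24.6 ± 6.19), *Irf3* (12.1 ± 0.375) and *Irf4* (0.429 ± 0.055). The ranges of *Irf7* and *Irf1* overlapped, as did those of each pair of neighbours from *Irf5* to *Irf9*, whereas *Irf1* lay above *Irf5*, *Irf9* above *Irf3* and *Irf3* above *Irf4* in all libraries of the group. MKO BMDMs had the same order, with *Irf7* at 155 ± 50.2 and *Irf1* at 123 ± 43.2 CPM per kilobase, and there only the ranges of these 2 genes overlapped. In livers *Irf3* and *Irf2* stood beside *Irf7* at the head of the order. *Irf7* (37.4 ± 11.9 CPM per kilobase), *Irf3* (34 ± 1.62) and *Irf2* (33.2 ± 6.41) overlapped in f/f livers, followed by *Irf9* (24.3 ± 2.11), *Irf1* (16 ± 1.71), *Irf5* (5.64 ± 2.31), *Irf8* (3.53 ± 1.61) and *Irf4* (0.219 ± 0.114), and of these later neighbours *Irf5* and *Irf8* overlapped. In MKO livers *Irf3* was at 36.4 ± 0.856 and *Irf7* at 35.2 ± 2.26 CPM per kilobase, with overlapping ranges.

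**Figure D1:**
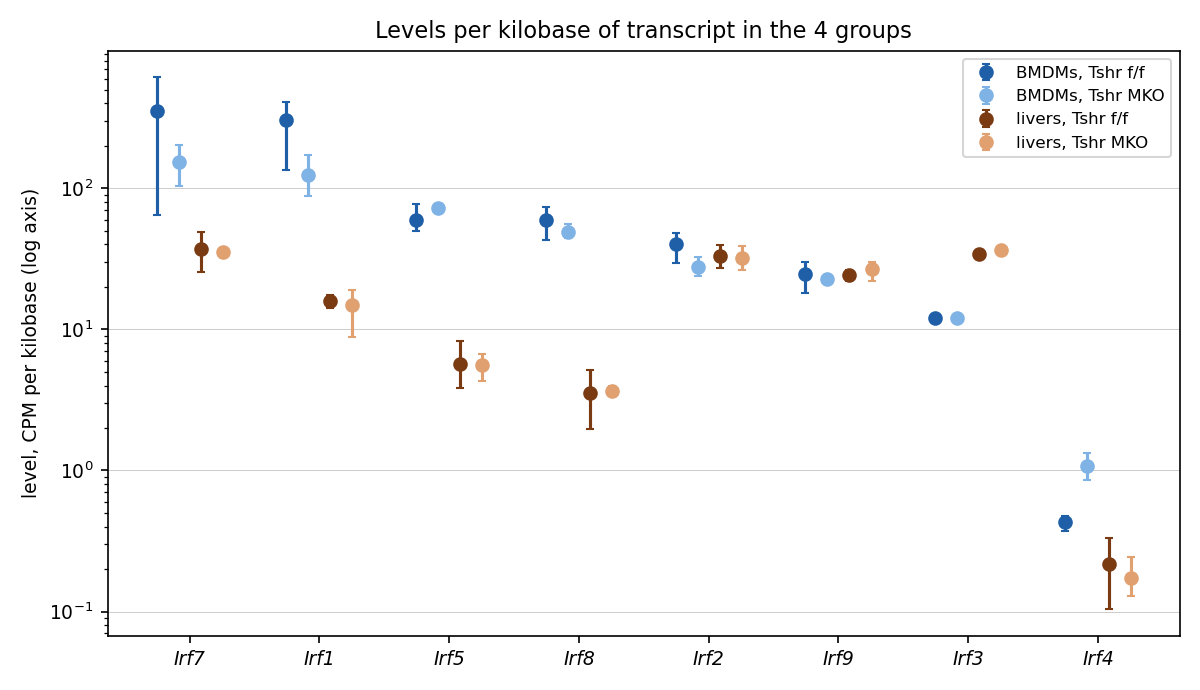
Mean level of each gene in CPM per kilobase of principal transcript (log axis) in the 4 groups, with bars from the lowest to the highest of 3 libraries. *Irf1*, *Irf5*, *Irf7* and *Irf8* sit higher in BMDMs than in livers, *Irf3* sits lower, and *Irf4* is the lowest gene in each group.

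*Irf7* and *Irf1* together held most of the family's summed level in BMDMs. *Irf1* made up 37.5%, 38.2% and 33% of the sum per kilobase in the f/f libraries, and *Irf7* 39.8%, 18.3% and 49.4%. The sum itself was 970.2, 351.5 and 1238 CPM per kilobase in f/f and 476.7, 439.9 and 469.7 in MKO BMDMs. The f/f libraries thus lay on both sides of the MKO libraries, which were close to each other. In livers the sum was 136.9–173.6 CPM per kilobase, and *Irf3* made up 18.6–26% of it, against 0.981–3.35% in BMDMs.

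The members also differed in how much they varied between libraries of one genotype. The pooled within-genotype SD of log2(CPM + 1) in BMDMs was 1.25 for *Irf7* and 0.7 for *Irf1*, larger than that of 99.1% and 93.3% of the 15372 genes tested, and 0.0244 for *Irf3*, larger than that of 0.0716% of them. The SD of *Irf3* in BMDMs rested on 872–1438 counts per library and was no larger than counting error alone would give, so its exact rank means little. In livers the SD of *Irf3* was 0.0678, again small, with 4.87% of 15062 genes below it. The SD of the other members in BMDMs was 0.214–0.299.

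The comparison of genotypes set macrophages of *Tshr* f/f mice with Lyz2-Cre against those without it, all exposed to TSH. Loss of the TSH receptor and the presence of Lyz2-Cre cannot be told apart in it, nor in livers. With edgeR quasi-likelihood tests on the counts of BMDMs, 0 of the 8 members had an adjusted p under 0.05, and neither had any of the 15372 genes tested (0%; lowest adjusted p 0.218). At an unadjusted p under 0.05, 2 members were lower in MKO BMDMs (*Irf1* and *Irf2*) and 1 was higher (*Irf4*), beside 10.2% and 7.73% of all genes. When 1 library was left out, the members lower at an unadjusted p under 0.05 were 4 without f/f replicate 2, and 0 without f/f replicate 1, f/f replicate 3, MKO replicate 1 or MKO replicate 2. Over all genes, those lower were 2299 of 15654 without f/f replicate 2, 1436 of 15743 without f/f replicate 1 and 1179 of 15925 without f/f replicate 3. They were 731 of 15884, 820 of 15859 and 1191 of 15687 without MKO replicates 1, 2 and 3. DESeq2, which called 7.91% of all genes, 696 lower and 520 higher, called 1 member, *Irf4* (adjusted p = 0.000183). The median log2 fold change of the 8 members was −0.21, beside 0.01 over all genes. It was −0.39 without f/f replicate 2, −0.07 without f/f replicate 3 and 0.01 without normalization factors, where the median of all genes was 0.17.

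*Irf4* was the member whose genotypes stood apart. Its level was 3.09, 2.43 and 2.84 CPM in f/f BMDMs (123, 106 and 74 counts) and 5.54, 6.61 and 8.53 CPM in MKO BMDMs (212, 248 and 354 counts). Every MKO library lay above every f/f library, and the log2 fold change was 1.31 ± 0.25 (SE; unadjusted p = 0.0014, adjusted p = 0.218 by edgeR). It lay between 1.12 and 1.44 when any 1 library was left out. *Irf4* was the only 1 of 8 members whose groups did not overlap, where 28.7% of all genes tested had that pattern. It is also the member with the lowest level, so that the difference was one between 74–123 and 212–354 reads per library. The summed level of 6 B and plasma cell markers was 2.34–3.97 CPM in f/f and 4.28–7.04 CPM in MKO BMDMs, with no overlap, and that of 6 dendritic cell markers was 4.26–5.27 CPM and 5.42–6.46 CPM. Most single markers of both lists overlapped between genotypes, and none was above 4.56 CPM in any BMDM library. The part of these other cells in the *Irf4* counts was not tested.

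*Irf1*, the factor induced by interferon-gamma, was at 1053, 396 and 1187 CPM in f/f BMDMs and at 256, 321 and 491 CPM in MKO BMDMs. Replicates 1 and 3 of f/f were above all MKO libraries, and f/f replicate 2 lay between MKO replicates 2 and 3. The log2 fold change was −1.3 ± 0.46 (unadjusted p = 0.0291, adjusted p = 0.252 by edgeR), with −1.65 without f/f replicate 2 and −1.03 without f/f replicate 3. *Irf2*, which encodes the competitor of IRF1, was at 144, 101.7 and 162 CPM in f/f and 88.2, 81.3 and 109 CPM in MKO BMDMs. The same library, f/f replicate 2, fell within the MKO range, and the log2 fold change was −0.55 ± 0.22 (unadjusted p = 0.0416, adjusted p = 0.264 by edgeR). Within a library, the counts of *Irf1* were 7.29, 3.89 and 7.32 times those of *Irf2* in f/f and 2.91, 3.95 and 4.51 times in MKO BMDMs.

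*Irf7*, the target of ISGF3 that amplifies type I interferon, was at 1002, 170 and 1591 CPM in f/f and at 531, 409 and 266 CPM in MKO BMDMs. The lowest value of all 6 libraries and the 2 highest were thus in f/f BMDMs, a 9.35-fold range within 1 group, against 2-fold in MKO. The log2 fold change of −1.2 ± 0.74 (unadjusted p = 0.155, adjusted p = 0.417 by edgeR) was −1.69 without f/f replicate 2 and −0.55 without f/f replicate 3.

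**Figure D2:**
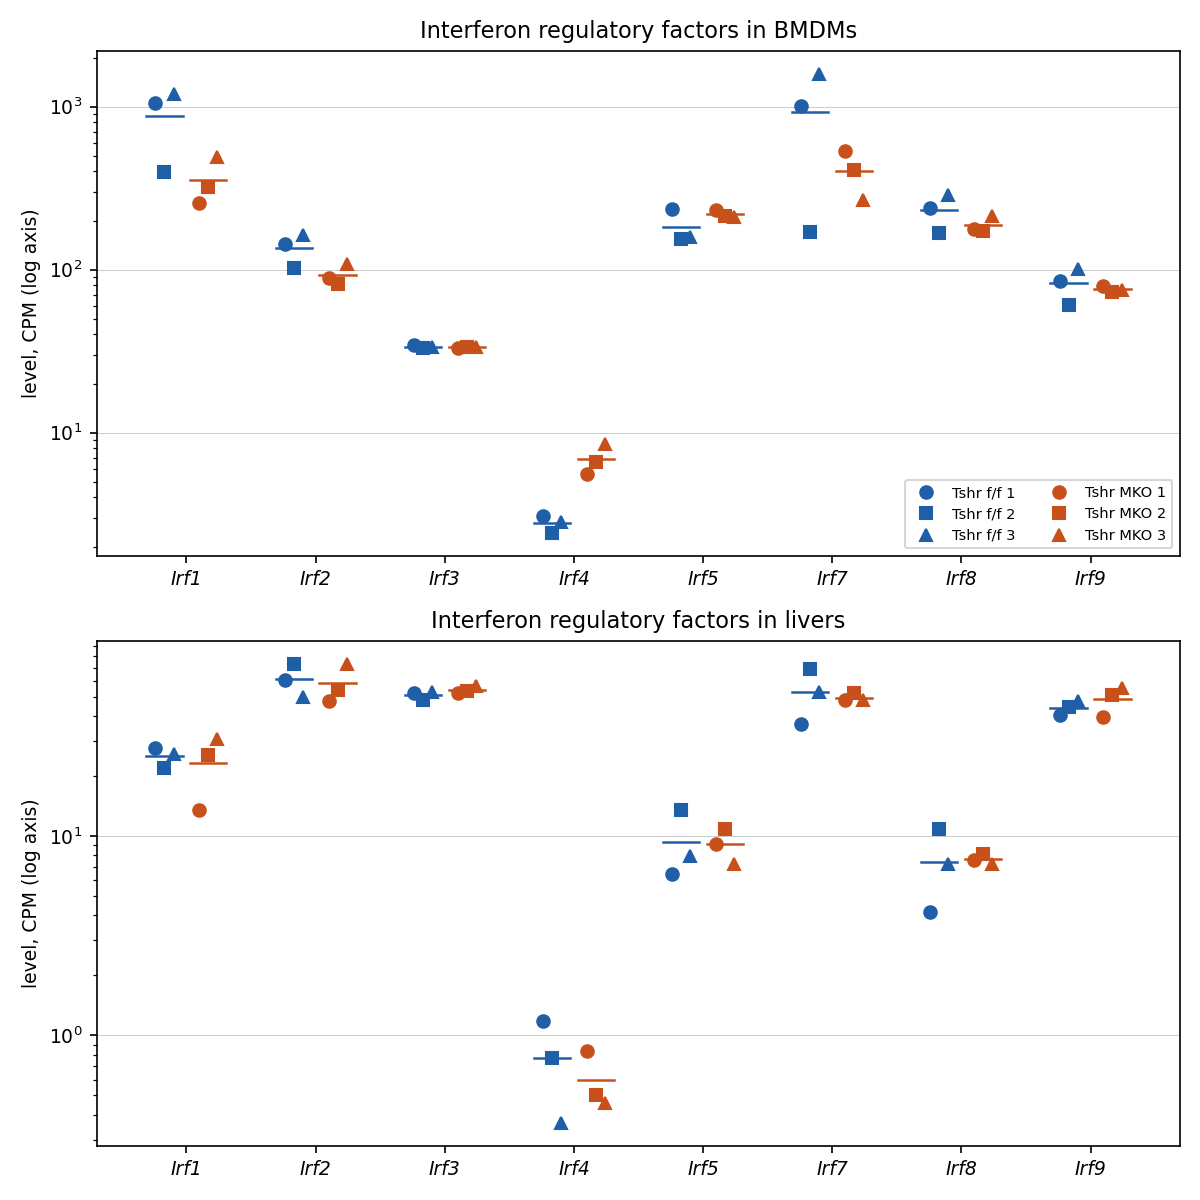
Level of each gene in CPM (log axis) in each library of BMDMs (top) and livers (bottom), with a short line at the mean of 3 libraries. In BMDMs the groups of *Irf4* are apart, *Irf7* spreads from 170 to 1591 CPM among f/f libraries, and the 6 values of *Irf3* lie between 32.9 and 34.4 CPM.

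The genes of the remaining factors differed less. *Irf3* was at 34.4, 32.9 and 33.5 CPM in f/f and 33, 33.6 and 33.4 CPM in MKO BMDMs, and its log2 fold change of −0.01 ± 0.10 changed sign under 5 alternatives. *Irf5* was at 235, 155 and 159 CPM in f/f and 233, 213 and 209 CPM in MKO, with a log2 fold change of 0.25 ± 0.20. Its exons share 411 bases, 14.2% of their merged length, with *Tnpo3* on the opposite strand, so reads there could be credited to either gene. *Irf8* was at 238, 168 and 286.1 CPM in f/f and 176, 173 and 213 CPM in MKO (log2 fold change −0.30 ± 0.23), and *Irf9* at 85.3, 61.1 and 101 CPM and 79.5, 73 and 75.1 CPM (−0.12 ± 0.20). For *Irf8* and *Irf9*, as for *Irf1*, *Irf2* and *Irf7*, f/f replicate 2 was the lowest f/f library and f/f replicate 3 the highest. Adjusted p-values of these 4 genes were 0.501–0.951 by edgeR.

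**Figure D3:**
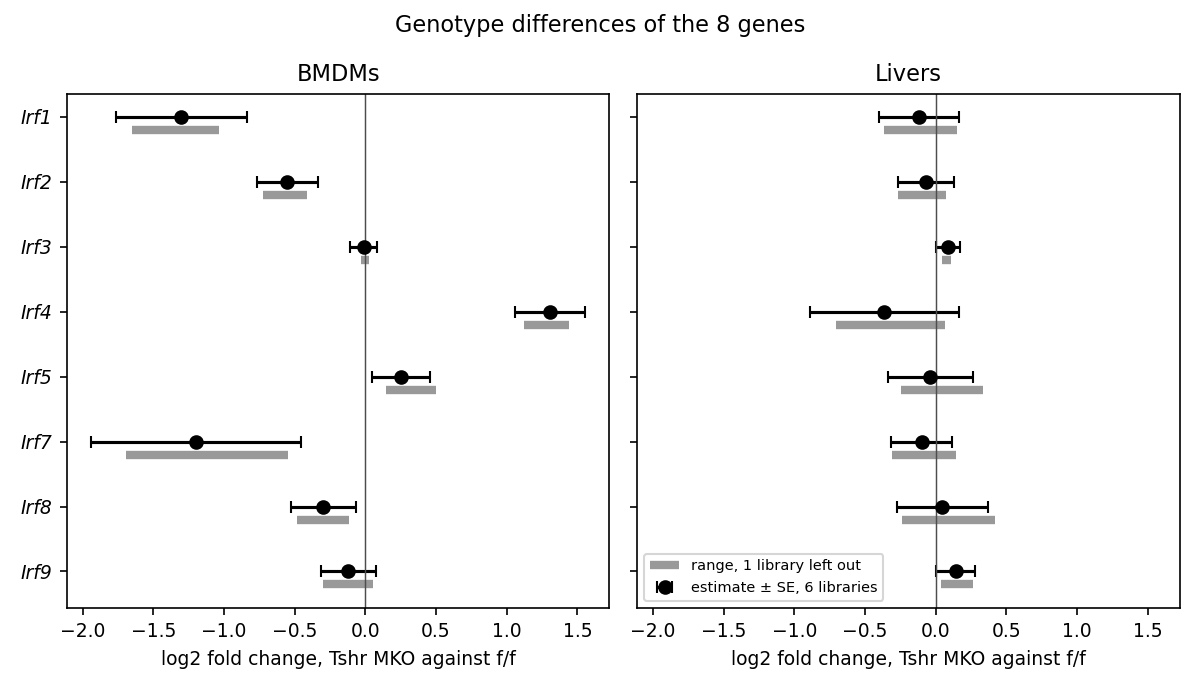
Log2 fold change of each gene, MKO against f/f, in BMDMs (left) and livers (right), as the edgeR estimate with its SE (points and thin bars) and the range of estimates when 1 library is left out (grey bars). The grey bar of *Irf7* in BMDMs runs from −1.69 to −0.55, and the grey bars of 6 genes in livers cross 0.

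Ratios of counts within a library need no scaling between libraries, and 12 of them, 6 in each tissue, were compared. The counts of *Irf4* were 0.013, 0.0144 and 0.00993 of those of *Irf8* in f/f BMDMs and 0.0314, 0.0381 and 0.04 in MKO BMDMs. These groups did not overlap, and the exact permutation test (two-sided) gave p = 0.1, the smallest that 3 against 3 allows (adjusted over the 12 ratios 0.6). *Irf1* counts were 30.6, 12 and 35.5 times those of *Irf3* in f/f and 7.78, 9.57 and 14.7 times in MKO BMDMs (exact permutation p = 0.2). The ratios were chosen after the values of the genes had been seen.

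The pathway around the family was followed in 6 lists of 112 genes, of which edgeR called 0 in BMDMs. Without f/f replicate 2 it called 3 lower, 1 in each of 3 lists, beside 13 lower and 0 higher of 15654 genes. A fit of all 12 libraries called 2 JAK and STAT genes, 1 type I interferon-stimulated gene and 2 interferon-gamma and IRF1 targets. All of them were lower in MKO BMDMs, and over all 17246 genes that fit called 85 lower and 65 higher. Of 22 genes of sensors, adaptors and kinases upstream of IRF3, IRF5 and IRF7, 7 were lower and 0 higher in MKO BMDMs at an unadjusted p under 0.05 (DESeq2 called 2 lower). The median log2 fold change was −0.49, with −0.30 without f/f replicate 3 and −0.73 without f/f replicate 2. *Tank*, which encodes a scaffold of the kinase TBK1, was at 243, 108 and 460 CPM in f/f and 64.3, 62.1 and 82.4 CPM in MKO (log2 fold change −1.96 ± 0.51). *Zbp1*, a sensor of Z-form nucleic acids, was at 507, 156 and 833 CPM and 124, 120 and 124 CPM (−2.02 ± 0.56). *Traf3*, an adaptor needed for type I interferon, was at 96.4, 73.9 and 129 CPM and 62.8, 62.9 and 62.4 CPM (−0.67 ± 0.21). In these 3 genes every f/f library was above every MKO library. Of the 22 genes, 5 had groups apart and lower in MKO and 2 apart and higher, beside 14% and 14.8% of all genes. Unadjusted calls in this list were 2 to 11 lower when 1 library was left out, with 11 without f/f replicate 2, 3 without f/f replicate 1 or replicate 3, and 2 without MKO replicate 1 or replicate 2. These counts, and those of the lists below in BMDMs, stand beside the counts over all genes given above for the same library left out.

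Interferon genes other than *Ifng* were hardly read. *Ifnb1* had 18, 0 and 27 counts in f/f BMDMs and 0 in the 3 MKO BMDMs, and *Ifna1*, *Ifna2*, *Ifna4*, *Ifna5* and *Ifne* of type I and *Ifnl2* and *Ifnl3* of type III were at 0 in all 12 libraries. *Ifng*, the type II interferon, had 781, 108 and 922 counts in f/f BMDMs and 16, 16 and 32 in MKO BMDMs. At 19.6, 2.47 and 35.4 CPM against 0.418, 0.427 and 0.771 CPM its groups were apart, with a log2 fold change of −5.13 ± 1.01 (unadjusted p = 0.0018, adjusted p = 0.218 by edgeR; DESeq2 called it lower). T and NK cells are the usual source of interferon-gamma, and the sum of 6 of their markers was 6.57–17.5 CPM in f/f and 4.11–17.9 CPM in MKO BMDMs, overlapping ranges. Which cells gave the *Ifng* reads was not tested. Of the receptor chains, *Ifngr1* was at 139, 129 and 69.2 CPM in f/f and 182, 168 and 272 CPM in MKO (0.89 ± 0.32), and *Il10rb* at 173, 139 and 176 CPM and 241, 231 and 198 CPM (0.45 ± 0.17). Of the 15 interferon and receptor genes 6 passed the filter, with 1 lower and 2 higher at an unadjusted p under 0.05, and the median log2 fold change was 0.04.

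Of 9 genes of JAK kinases, STAT factors and their inhibitors, 5 were lower and 1 higher at an unadjusted p under 0.05, with a median log2 fold change of −1.19, or −0.72 without f/f replicate 3 (DESeq2 called 4 lower). *Jak2*, the kinase of the interferon-gamma receptor, was at 303, 268 and 855 CPM in f/f and 82.8, 86.6 and 98.3 CPM in MKO BMDMs (−2.41 ± 0.48), with every f/f library above every MKO library. *Socs1*, a feedback inhibitor, was at 14.7, 3.78 and 30.7 CPM and 1.93, 2.45 and 4.12 CPM (−2.53 ± 0.75), with f/f replicate 2 inside the MKO range. Others, named for their p after their values were seen, were *Ptpn2* (−1.29 ± 0.41) and *Usp18* (−2.09 ± 0.85) among the lower and *Pias1* (0.41 ± 0.15) as the higher. Calls at an unadjusted p under 0.05 were 3 to 7 lower when 1 library was left out, with 3 without MKO replicate 1 or replicate 2.

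The 29 type I interferon-stimulated genes and the 24 interferon-gamma and IRF1 target genes differed in how f/f replicate 2 lay. Both lists had negative median log2 fold changes, MKO against f/f, of −1.53 and −1.79. In the first list 9 genes were lower and 0 higher at an unadjusted p under 0.05 (DESeq2 called 7 lower), and in the second 21 lower and 0 higher (DESeq2 called 19 lower). The groups did not overlap in 2 of 29 genes of the first list and in 17 of 24 of the second, all lower in MKO, beside 14% of all genes. In 24 of 29 genes of the first list f/f replicate 2 lay below all 3 MKO libraries, as it did for *Irf7*, and in 1 of 24 of the second, beside 30.4% of all genes. This feature was chosen after the values had been seen, and the difference between the lists was not tested.

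**Figure D4:**
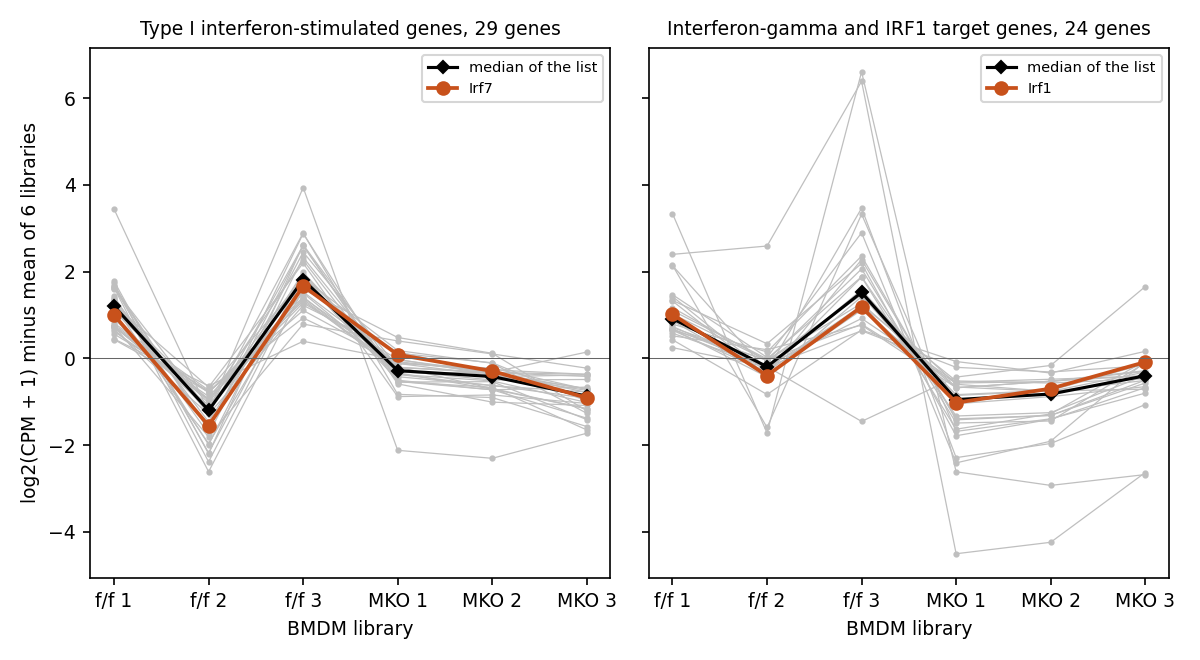
log2(CPM + 1) minus its mean over 6 BMDM libraries for each gene (grey), the median of the list (black) and a member of the family (orange), for 29 type I interferon-stimulated genes with *Irf7* (left) and 24 interferon-gamma and IRF1 target genes with *Irf1* (right). Lines join the values of one gene and imply no order of libraries, and f/f 2 is the lowest library for *Irf7* and lies above MKO 1 and MKO 2 for *Irf1*.

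*Rsad2*, which encodes the antiviral enzyme viperin, was at 536, 75.8 and 1305 CPM in f/f and 98.1, 93.1 and 58.3 CPM in MKO BMDMs (−2.94 ± 0.93). *Herc6*, an ISG15 ligase, was at 298, 79.4 and 582 CPM and 68.1, 69.9 and 60.9 CPM (−2.27 ± 0.66), and *Cxcl10*, a chemokine induced by either interferon, at 771, 29.2 and 1088 CPM and 15.3, 13.4 and 20.5 CPM (−5.26 ± 1.23). *Herc6* and *Cxcl10* were the 2 genes of the list with separate groups. The calls at an unadjusted p under 0.05 in this list rested on single libraries, with 28 of 29 lower without f/f replicate 2, 4 without f/f replicate 1, 2 without f/f replicate 3, 3 without MKO replicate 1 or replicate 2, and 2 without MKO replicate 3. The median log2 fold change was −2.03 without f/f replicate 2 and −0.87 without f/f replicate 3.

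Among the interferon-gamma and IRF1 targets, *Gbp2*, a guanylate-binding protein, was at 1403, 701.3 and 2530 CPM in f/f and 160, 209 and 348 CPM in MKO BMDMs (−2.69 ± 0.55). *Nos2*, the inducible nitric oxide synthase, was at 412, 470 and 6550 CPM and 2.45, 3.15 and 11.6 CPM (−8.75 ± 1.67), and *Psmb8*, a subunit of the immunoproteasome, at 384, 308 and 456 CPM and 167, 186 and 220 CPM (−1.003 ± 0.21). These 3 genes had separate groups. Calls at an unadjusted p under 0.05 were 13 to 23 lower when 1 library was left out, with 13 without MKO replicate 1 and 14 without MKO replicate 2.

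Of 13 genes listed as partner factors and IRF2-binding proteins, 12 passed the filter, and 4 were lower and 3 higher at an unadjusted p under 0.05 (DESeq2 called 2 lower and 1 higher). The median log2 fold change was −0.37, with −0.10 without f/f replicate 3 and −0.54 without f/f replicate 2. *Batf2*, whose protein pairs with IRF1, was at 113, 23.2 and 236 CPM in f/f and 10.7, 11.8 and 18.9 CPM in MKO BMDMs (−3.17 ± 0.80). *Rela*, the NF-κB subunit, was at 155, 83.6 and 244 CPM and 68.8, 62.9 and 82.7 CPM (−1.17 ± 0.38). *Batf3*, a partner of IRF4 and IRF8, was at 1.33, 1.65 and 0.998 CPM and 2.14, 2.64 and 3.35 CPM (1.02 ± 0.32), and like *Irf4* it was higher in each MKO library than in each f/f library. The others at that threshold, also named after their values were seen, were *Nfkb1* (−1.82 ± 0.64) and *Batf* (−1.25 ± 0.49) among the lower and *Irf2bpl* (0.62 ± 0.23) and *Irf2bp2* (0.34 ± 0.14) among the higher. Without MKO replicate 1 or replicate 2, 1 gene was lower at an unadjusted p under 0.05.

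Markers of other cells differed between BMDM libraries. The sum of 5 markers of stellate cells and fibroblasts was 1778 CPM in f/f replicate 2 and 383–743 CPM in the other 5 libraries, with *Lrat*, the defining marker of stellate cells, at 0 in all 6. The sum of 6 macrophage markers was 14500, 16160 and 14710 CPM in f/f and 22000, 19870 and 29060 CPM in MKO, but this gap was that of *Lyz2*. The other 5 summed to 5634, 6318 and 5933 CPM in f/f and 5851, 5335 and 6742 CPM in MKO, which overlapped. Why *Lyz2*, whose promoter drives Cre in MKO cells, was higher in MKO BMDMs was not tested. The sum of 6 neutrophil markers, 5.75, 30 and 45.9 CPM in f/f and 6.24, 4.93 and 11.9 CPM in MKO, was mostly *S100a8*, at 5.22, 29 and 45.6 CPM and 3.08, 3.55 and 8.8 CPM. Other neutrophil markers, at 0–1.71 CPM, did not run that way, and *Retnlg* and *Mpo* were higher in each MKO library than in each f/f library. These markers were named after their values were seen. Their part in the values of *Irf1*, *Irf2*, *Irf7* and their targets was not tested.

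In livers, 0 of the 8 members had an adjusted p under 0.05 by edgeR or by DESeq2, and 0 had an unadjusted p under 0.05 by either. Without f/f replicate 1, 1 member, *Irf7*, was lower at an unadjusted p of 0.0476 by edgeR. Of 15062 genes tested, 0 had an adjusted p under 0.05 by edgeR (0%), with 5.18% lower and 5.27% higher at an unadjusted p under 0.05, and DESeq2 called 1.77%, 142 lower and 124 higher. With 1 library left out, 531 to 1158 of all genes were lower and 485 to 971 higher at an unadjusted p under 0.05. Both counts were highest without f/f replicate 2. Adjusted p-values of the members were 0.767–0.982, and no member had groups apart, beside 17.3% of all genes. The median log2 fold change of the members was −0.05, beside −0.01 over all genes, and its sign turned on single libraries, with 0.11 without f/f replicate 2, 0.05 without MKO replicate 1, −0.11 without f/f replicate 3, −0.09 without MKO replicate 2 and −0.02 without MKO replicate 3.

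*Irf1* was at 27.8, 22.1 and 25.7 CPM in livers labelled f/f and at 13.6, 25.4 and 30.8 CPM in livers labelled MKO (log2 fold change −0.12 ± 0.28). MKO replicate 1 was below the other 5 livers, and without it the log2 fold change was 0.15. *Irf7* was at 36.4, 69.1 and 53 CPM in f/f and 48, 52.2 and 48.2 CPM in MKO livers (−0.10 ± 0.22), the f/f range enclosing the MKO range. *Irf5* was at 6.43, 13.6 and 8 CPM and 9.16, 10.9 and 7.26 CPM (−0.04 ± 0.30), and *Irf8* at 4.16, 10.8 and 7.23 CPM and 7.63, 8.12 and 7.22 CPM (0.05 ± 0.32). For *Irf5*, *Irf7* and *Irf8*, f/f replicate 1 was the lowest liver and f/f replicate 2 the highest. *Irf3* was at 52.1, 48 and 53 CPM and 52.4, 53.3 and 56.9 CPM (0.09 ± 0.08), *Irf2* at 61, 72.9 and 49.7 CPM and 47.9, 54 and 73.4 CPM (−0.07 ± 0.20), and *Irf9* at 40.6, 44.5 and 47.5 CPM and 39.6, 51 and 55.6 CPM (0.14 ± 0.14). *Irf4* had 35, 28 and 11 counts in f/f and 30, 21 and 13 in MKO livers (−0.36 ± 0.53).

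The sum of 5 Kupffer cell markers had the same order as *Irf5*, *Irf7* and *Irf8* in the 3 f/f livers. It was 223, 590 and 436 CPM in f/f and 389, 503 and 195 CPM in MKO livers, with none of the 5 at 0. Among MKO livers *Irf5* and *Irf8* also had its order. Over the 6 livers the order was not kept. MKO replicate 3 had the lowest sum, but *Irf7* at 48.2 and *Irf8* at 7.22 CPM, above f/f replicate 1 (36.4 and 4.16 CPM). The 5 macrophage markers other than *Lyz2* summed to 75.9, 223.5 and 139.9 CPM in f/f and 121.8, 163 and 69.5 CPM in MKO livers, and 5 endothelial markers to 45.6, 155 and 157 CPM and 131, 144 and 96.7 CPM. In f/f livers replicate 1 was the lowest in each of these sums. Neutrophil markers were highest in the same liver, at 66.9 CPM against 6.3–21.6 CPM in the other 5, as was *Irf4*. In tissue RNA, fewer cells of a type and less RNA per cell cannot be told apart, and the part of these cells in the levels of the members was not tested.

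**Figure D5:**
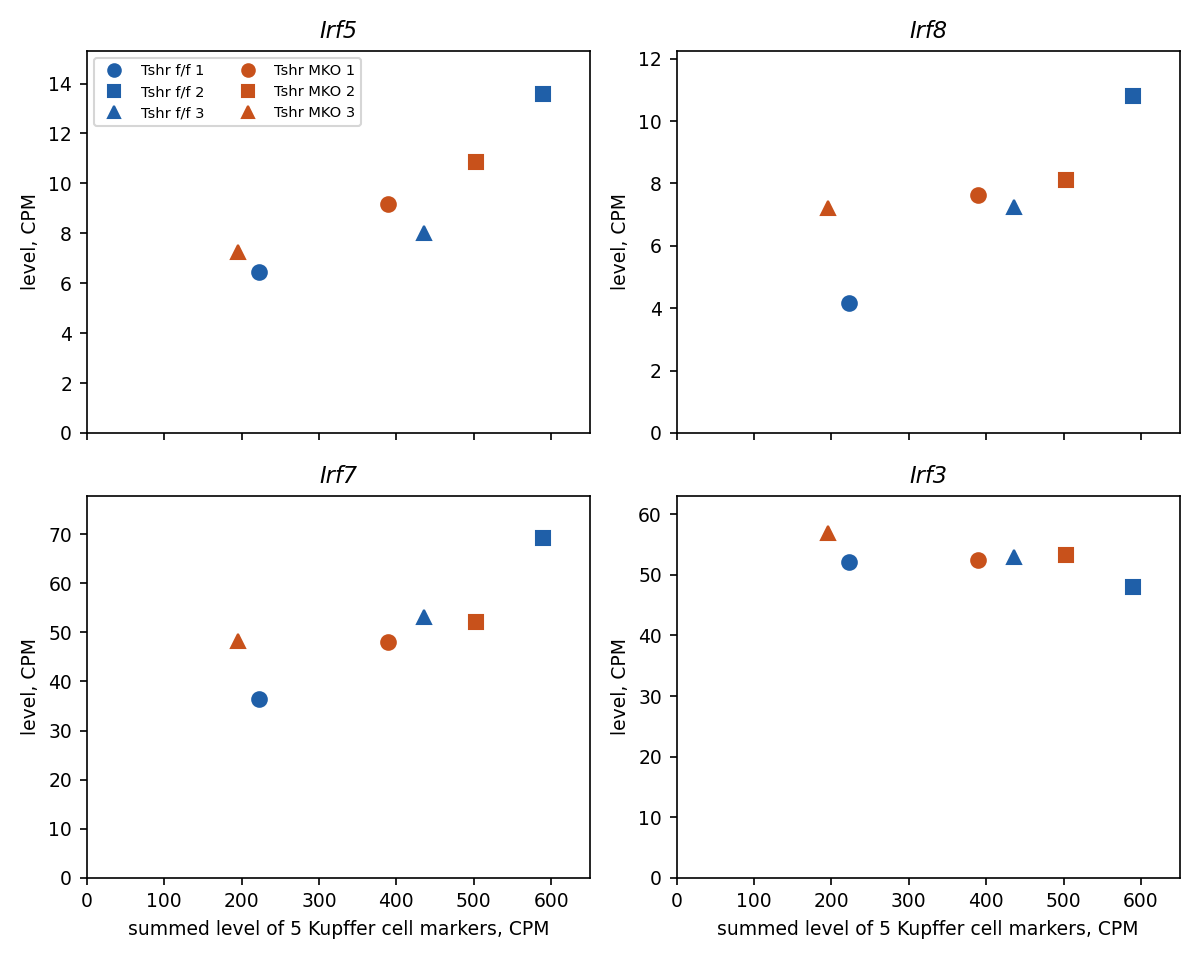
Level of *Irf5*, *Irf8*, *Irf7* and *Irf3* in CPM in each liver against the summed level of 5 Kupffer cell markers in the same liver. The liver with the highest marker sum, f/f 2 at 590 CPM, is the highest for *Irf5*, *Irf7* and *Irf8* and the lowest for *Irf3*.

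In livers edgeR called 0 of the 112 listed genes, and DESeq2 called 1, *Irf2bp2*, a corepressor that binds IRF2. It was at 82.2, 65.3 and 84.8 CPM in f/f and 51, 42.5 and 59.6 CPM in MKO livers, groups apart, with a log2 fold change of −0.60 ± 0.16 (unadjusted p = 0.00618, adjusted p = 0.334 by edgeR). In BMDMs it was at 104, 98.4 and 92 CPM in f/f and 129, 108 and 137 CPM in MKO (0.34 ± 0.14). Of the interferon-gamma and IRF1 targets, 22 passed the filter, and 4 were higher and 0 lower in MKO livers at an unadjusted p under 0.05, with a median log2 fold change of 0.29, or 0.56 without f/f replicate 2, 0.16 without f/f replicate 1 and 0.15 without MKO replicate 3. The 3 genes of the immunoproteasome were among them, and the other was *Il15* (0.93 ± 0.35). *Psmb8* was at 21.6, 28.6 and 23.6 CPM in f/f and 30.5, 29.8 and 32.9 CPM in MKO livers (0.34 ± 0.12), *Psmb9* at 7.28, 13.5 and 9.32 CPM and 15.8, 13.6 and 18.4 CPM (0.67 ± 0.24), and *Psmb10* at 12.6, 16.6 and 12.6 CPM and 21.8, 17.9 and 21.4 CPM (0.55 ± 0.15). In BMDMs these 3 genes were lower in each MKO library than in each f/f library. Calls in this list at an unadjusted p under 0.05 were 1 to 7 higher when 1 library was left out, with 7 without f/f replicate 2, 2 without f/f replicate 3 or MKO replicate 2, and 1 without f/f replicate 1, MKO replicate 1 or MKO replicate 3.

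Of the type I interferon-stimulated genes, 1 was lower and 1 higher in MKO livers at an unadjusted p under 0.05 (median log2 fold change 0.17). These values turned on single libraries, with 3 lower, 0 higher and a median of −0.05 without f/f replicate 1, and 1 lower, 4 higher and a median of 0.33 without f/f replicate 2. Without f/f replicate 3 there were 1 lower and 4 higher, without MKO replicate 1 there were 1 lower and 3 higher (median 0.26), without MKO replicate 2 there were 1 lower and 2 higher, and without MKO replicate 3 there were 0. *Ly6e*, a membrane protein that restricts viral entry, was at 351, 397 and 361 CPM in f/f and 292, 305 and 255 CPM in MKO livers (−0.38 ± 0.11), and *Cxcl10* at 1.25, 2.07 and 2.12 CPM and 2.49, 3.29 and 5.95 CPM (1.099 ± 0.40). *Bst2*, or tetherin, was at 75.3, 78 and 96 CPM and 93.5, 101.9 and 108 CPM (0.28 ± 0.12). No gene of the upstream, interferon and receptor, or JAK and STAT lists had an unadjusted p under 0.05 in livers, by edgeR or DESeq2. Their medians were −0.10, 0.03 and 0.10, and that of the upstream list was 0.0066 without f/f replicate 2. *Tbk1*, the kinase that phosphorylates IRF3, was at 28.4, 25 and 28.6 CPM in f/f and 22.4, 22.6 and 26.1 CPM in MKO livers (−0.21 ± 0.11). The log2 fold changes in livers were −0.52 ± 0.27 for *Tlr3* and −0.58 ± 0.39 for *Cgas*, sensors of double-stranded RNA and of DNA, −0.39 ± 0.23 for *Ifngr1*, 0.14 ± 0.11 for *Ifnar1*, 0.08 ± 0.11 for *Ifnar2*, −0.18 ± 0.09 for *Jak1* and 0.36 ± 0.27 for *Usp18*. Those of *Etv6* and *Irf2bpl*, partners of the family, were 0.24 ± 0.10 and −0.33 ± 0.15. *Ifng* had 4 counts in f/f replicate 3 and 0 in the other livers.

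Between tissues, 5 of the 8 members differed at an adjusted p under 0.05 when f/f BMDMs were set against f/f livers in a fit of all 12 libraries, 4 higher and 1 lower in BMDMs, where 69.3% of 17246 genes did (32.7% higher and 36.6% lower). *Irf1* was higher in BMDMs with a log2 fold change of 4.24 ± 0.47 (777, 287 and 875 CPM scaled over the 12 libraries against 37.2, 30.1 and 35; adjusted p = 1.7e-05). *Irf8* was higher by 4.07 ± 0.34 (adjusted p = 1.9e-06), *Irf5* by 3.41 ± 0.30 (adjusted p = 3.2e-06) and *Irf7* by 3.24 ± 0.65 (adjusted p = 0.0011) on the log2 scale. *Irf3* was lower in BMDMs, at 25.4, 23.9 and 24.7 CPM against 69.7, 65.5 and 72 CPM (−1.49 ± 0.09, adjusted p = 1.3e-07). *Irf4* missed the threshold at 0.97 ± 0.40 (adjusted p = 0.0513), with 2.28, 1.76 and 2.09 CPM in BMDMs and 1.58, 1.05 and 0.496 CPM in livers, groups that did not overlap (71.4% of genes), and it passed under 7 of 21 alternatives. *Irf2* (0.27 ± 0.23) and *Irf9* (0.02 ± 0.18) were within the spread between replicates, and both changed sign when MKO BMDMs were set against MKO livers (−0.21 and −0.25). Tissue, culture, TSH, diet and insulin cannot be told apart in these differences. Scaling between such unlike samples assumes that most genes do not differ, whereas 69.3% were called here. Sizes of the differences therefore depend on the scaling, and that of *Irf3* was −0.67 ± 0.15 without normalization factors.

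The genotype effects themselves were compared between BMDMs and livers in the same fit. For 0 of 8 members, and for 1 of 17246 genes (*Gprc5c*, 0.0058%), did the effects differ at an adjusted p under 0.05 by edgeR. *Irf4* had a difference of 1.66 ± 0.57 on the log2 scale (unadjusted p = 0.0144, adjusted p = 0.241), the only member with an unadjusted p under 0.05, beside 14.5% of all genes, and DESeq2 called it (adjusted p = 0.0405) beside 4.64% of all genes. The difference was −1.19 ± 0.59 for *Irf1* and −1.11 ± 0.84 for *Irf7*. Leaving out BMDM f/f replicate 2 moved these to −1.54 and −1.60, and leaving out BMDM f/f replicate 3 to −0.90 and −0.44.

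For *Irf7*, *Irf1* and *Irf4*, the 3 members with the largest SD of centred levels when the difference between genotypes is kept in, the most like genes were sought over the 12 libraries, by the root mean square difference of log2(CPM + 1) centred within each tissue, among 13244 genes tested in both tissues. For *Irf7* they were *Oas1g* (0.18), *Oas3* (0.209) and *Oas1a* (0.234), which encode enzymes that sense double-stranded RNA, and of which *Oas3* and *Oas1a* are also in the list of type I interferon-stimulated genes. *Oas1g* was at 173, 39 and 276 CPM in f/f and 84, 79.9 and 50.1 CPM in MKO BMDMs. The *Oas1* genes are near-identical copies, and their counts are uncertain for that reason. For *Irf1* they were *Clec5a* (0.248), a lectin receptor of myeloid cells, *Arid5a* (0.253), an RNA-binding protein that stabilises inflammatory transcripts, and *Rela* (0.272). *Clec5a* was at 183, 74.1 and 230 CPM in f/f and 52.1, 56.5 and 61.9 CPM in MKO BMDMs. For *Irf4* they were *Rell1* (0.195), *Sult1a1* (0.204) and *Lhpp* (0.213), and *Rell1* was at 23.6, 26.5 and 22.6 CPM in f/f and 38.7, 40.1 and 49.7 CPM in MKO BMDMs. *Sult1a1* was at only 0.251, 0 and 0 CPM in f/f and 0.496, 0.533 and 1.16 CPM in MKO BMDMs. Adding 1 to CPM narrows differences between values this low.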

How the data were processed

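RNA of 6 BMDM and 6 liver samples, 3 per genotype and tissue, had been isolated with a Qiagen kit, made into strand-specific TruSeq libraries and read on a NovaSeq instrument. The authors trimmed the reads with Skewer, and the submitters' processing notes name FastQC 0.11.2, STAR, StringTie and the build mm10. The label of the extraction step speaks of thymic samples, which no other label does. The deposited values are raw read counts per gene, and the strand setting of the counting is not given in the sources used here, so reads where exons overlap may be misassigned.

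Differences were tested in R 4.3.3 with the quasi-likelihood method of edgeR 4.0.16 on filtered counts (filterByExpr) with TMM factors and robust estimation, within each tissue for genotypes and over 12 libraries for tissues and for the difference of genotype effects, with Benjamini-Hochberg adjustment over all genes tested. A call is an adjusted p under 0.05. Each SE of a log2 fold change was worked back from the edgeR test, as the absolute log2 fold change divided by the square root of the F statistic. The authors' model, MARS, was not run, because it takes no account of the spread between replicates. The p-values measure only the spread between these samples, which may be technical. Exact permutation tests used scipy 1.17.1. Gene positions and lengths came from GENCODE M21 (GRCm38), promoters from RefSeq. The tests were checked on simulated data. DESeq2 1.42.0, other scalings and filters, a replicate block, a fit of all 12 libraries for the genotypes and leaving out each library were alternatives.

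The members and lists were chosen with earlier results of these data known. Named were the 8 members, *Tshr*, *Lyz2*, up to 3 genes of each list with the lowest p in each tissue, and the 3 genes most like each of the 3 members with the largest SD. Other genes (*Ifnb1* and the further interferons, *Clec4f*, *Lrat*, *Tnpo3*, *Gprc5c* and those said so beside their values) were named after their values were seen. Some listed genes are not reported here by name.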

Additional observations from a re-analysis of the deposited data

How the results depend on the processing

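Replicate numbers did not pair the samples: the correlation of same-numbered f/f and MKO deviations was 0.152, 0.0357 and 0.118 in BMDMs and −0.0755, 0.254 and −0.0331 in livers, and not every sample correlated best with its own number. With replicate as a block, 0 members were called in BMDMs, 0 in livers, 5 between tissues and 0 for the difference of effects, and over all genes 1 was called in BMDMs and 0 in livers. DESeq2 called 1 member in BMDMs and 1 for the difference of effects, *Irf4* in both. Without normalization factors 8 members were called between tissues, and the median log2 fold change of all genes was 0.79 against −0.03, so that *Irf2* and *Irf9* (1.05 and 0.78) lay close to that shift. In BMDMs that setting moved the median of all genes from 0.01 to 0.17, and gave 0.16 for *Irf3*, 0.10 for *Irf9* and 0.0473 for the difference of effects of *Irf3*. The groups of 2 members were apart in CPM without TMM factors in BMDMs, against 1. When 1 library was left out this count was 1 to 6 in BMDMs and 0 to 2 in livers, and calls of members stayed at 0 in BMDMs and livers. Groups of 3 and 2 libraries separate more easily than groups of 3 and 3. The share of all genes apart is not given for these counts or for the one without TMM factors, so they are not read as a trait of the members. Members near 0 changed sign. *Irf3* in BMDMs was 0.0606 with upper-quartile factors, 0.0028 without a filter and 0.0137 with a mean of at least 50 counts, *Irf9* between tissues −0.0328 with that mean and −0.25 for MKO groups, *Irf2* between MKO groups −0.21, *Irf2* in livers 0.0845 with the initial letter of each sample's name as a covariate, and *Irf5* in livers 0.0125 with the block. With 1 library left out, log2 fold changes ranged from −0.0281 to 0.0282 for *Irf3* and −0.30 to 0.0521 for *Irf9* in BMDMs, −0.37 to 0.15 for *Irf1*, −0.26 to 0.0739 for *Irf2*, −0.70 to 0.0685 for *Irf4*, −0.25 to 0.33 for *Irf5*, −0.31 to 0.14 for *Irf7* and −0.24 to 0.42 for *Irf8* in livers, −0.14 to 0.20 for *Irf9* between tissues and −0.0913 to 0.52 for *Irf5* in the difference of effects. *Irf4* between tissues passed the threshold with RLE (0.98), upper-quartile (1.12) or no factors (1.801), DESeq2 (0.98), MKO groups (2.63), and without liver f/f replicate 1 (1.39) or liver MKO replicate 1 (0.97). The median of the interferon and receptor genes in BMDMs was 0.22 without factors, −0.17 without a filter and −0.13 to 0.0736 with 1 library left out, and in livers −0.10 with the covariate and −0.14 to 0.0428 with 1 library left out. Ranks of levels moved in 14 of 64 comparisons with CPM or merged exons, in each case by at most 2 places. The cause of these changes was not tested. With 3 libraries per group, members with the spread of *Irf7* could not be resolved, and *Irf4* in livers rested on 11–35 counts.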
